A study of Homo sapiens with 8 samples.

Results

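The genes described here are the BTB-Kelch adaptors and cullins in RNA-seq data of TMD8, an established human line from the ABC (activated B cell-like) subtype of diffuse large B cell lymphoma (DLBCL). They were chosen by symbol, as every gene of the deposited table named KLHL or KBTBD with a number, KEAP1, the cullins CUL1, CUL2, CUL3, CUL4A, CUL4B, CUL5 and CUL7, and RBX1 and NEDD8. The rule found 53 of the 25066 genes in the table, 34 of them KLHL genes, 9 KBTBD genes and 7 cullins. All cells carried lentiviral Cas9 together with a guide RNA, either a control guide (sgCTRL, labelled KLHL14(+/+)) or a guide against KLHL14 (sgKLHL14, labelled KLHL14(-/-)). Both kinds of cell received ibrutinib, which blocks the kinase BTK of the B cell receptor pathway, at 2 nM or its solvent DMSO for 24 h. The 4 groups, sgKLHL14 in ibrutinib, sgCTRL in ibrutinib, sgKLHL14 in DMSO and sgCTRL in DMSO, had 2 libraries each. The labels do not say whether the sgKLHL14 cells are a pool or 1 clone, nor whether replicate libraries were grown as separate cultures. The p-values therefore rest on a spread between libraries that may be technical.

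Cullins are scaffolds of modular ubiquitin ligases. A cullin holds the RING protein RBX1 at one end and a substrate receptor at the other, and is switched on when the ubiquitin-like protein NEDD8 is attached to it. CUL3 takes its receptors from BTB proteins, and in the BTB-Kelch family one protein does both jobs, since the BTB domain binds CUL3 and the Kelch propeller binds the substrate. KLHL6 and KLHL14 are the members best known in B cells. KLHL6 is needed for normal germinal centre B cells in mice, and both genes are mutated in human B cell lymphoma.

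Library totals ran from 12333876 to 23467110 reads, and replicate libraries, with correlations of 0.994 to 0.996 over genes, differed by more than sampling noise. All 8 B cell markers examined were expressed (3139 to 4749 CPM in sum; CPM are reads scaled to a common library total), as were the 3 markers of activated B cell-like lymphoma. Both sets moved with ibrutinib. The B cell markers summed to 4578 to 4749 CPM in sgKLHL14 and 4656 to 4684 in sgCTRL with ibrutinib, against 3139 to 3214 and 3273 to 3349 with DMSO. With ibrutinib 7 of 8 in sgKLHL14 and 6 of 8 in sgCTRL were called higher, where 19.7% and 17.9% of all genes were. The lymphoma markers summed to 1935 to 2003 CPM in sgKLHL14 and 1522 to 1561 in sgCTRL with ibrutinib, against 2622 to 2827 and 2528 to 2599 with DMSO. With ibrutinib IRF4 fell and TNFRSF13B rose in both kinds of cell. Between the guides, 2 of the 8 B cell markers were called higher in sgKLHL14 in each treatment, and 0 lower. Of the 3 lymphoma markers 1 was called higher in sgKLHL14 with ibrutinib and 0 with DMSO. Of all genes, 2.35% with ibrutinib and 1.62% with DMSO were called for the guide in either direction. The T cell genes CD3D and CD3E were at 0 reads in every library, and CD3G and CD2 had 1 and 2 reads in all. The 5 myeloid markers summed to at most 1.20 CPM, with FCGR3A at 0. A few genes of other cell types were present at low level and also moved with ibrutinib. The T cell markers summed to 3.44 to 3.89 CPM in sgKLHL14 and 3.39 to 3.68 in sgCTRL under ibrutinib, against 1.85 to 2.09 in sgKLHL14 and 1.68 to 2.07 in sgCTRL under DMSO, nearly all of them CD4 and CD8A. Of these 2, both were called higher with ibrutinib in sgKLHL14 and CD4 in sgCTRL. The epithelial and fibroblast markers summed to 17.7 to 19.5 and 19.4 to 20.1 CPM under ibrutinib with sgKLHL14 and sgCTRL, against 15.9 to 18.5 and 15.1 to 15.9 under DMSO, and EPCAM and KRT18 had 1 read each in all libraries together. Of the 4 such markers that could be tested, DCN and COL1A1 rose and KRT8 fell with ibrutinib in both kinds of cell. The part of such RNA in the changes below was not tested. In bulk RNA, fewer cells of a kind and less RNA per cell cannot be told apart.

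A gene was taken as expressed, and entered the tests, when its mean over the 8 libraries reached the value of 10 reads in a library of middle depth, which was 4.03 on the deposited log2 scale of normalized reads. By this measure 43 of the 53 members were expressed, among 12682 genes in all. They were 26 of 34 KLHL genes, 7 of 9 KBTBD genes, KEAP1 (the receptor that holds the antioxidant factor NFE2L2 down), all 7 cullins, RBX1 and NEDD8. KLHL38 and KBTBD5 (now KLHL40, a gene of skeletal muscle) had no read in any library. KLHL1, KLHL4, KLHL10, KLHL30, KLHL32, KLHL34, KLHL35 and KBTBD10 (now KLHL41, also a muscle gene) had reads but fell below the limit, with at most 11 reads in a library. The nearest members on either side of the limit were KLHL31 inside it, with a mean of 5.18, and KBTBD10 outside it, with a mean of 3.31.

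Levels of different genes were compared per kilobase of the transcript named in the table, as a mean log2 over the 8 libraries. For KLHL29 the longest protein-coding transcript was used instead. NEDD8 was the highest member at 12.36, and CUL4A, a scaffold that works with DDB1 rather than with BTB proteins, was next at 11.51. NEDD8, with a transcript of 708 bases, shares 488 exon bases with NEDD8-MDP1 on the same strand, so its reads and rank are uncertain. On the other strand CUL4A shares 437 exon bases with PCID2, and CUL1 and CUL3 share 385 and 598 with antisense genes. KLHL14 was the third highest member and the highest of the 34 expressed adaptors in this mean over all groups, at 10.34. In both DMSO groups KBTBD11 was above it, as the shares below show, so its place rests on the ibrutinib libraries. CUL1, the scaffold of the F-box ligases, stood at 10.30 and KBTBD11 at 10.28, so that the means of KLHL14, CUL1 and KBTBD11 lay within 0.1 of each other, which is less than the log2 change that ibrutinib made in KLHL14 or KBTBD11. CUL3, the scaffold that takes its receptors from BTB proteins, ranked 8 of 43 at 9.81. KLHL6 ranked 17 at 8.02, and KLHL31 was lowest at 2.66. With the longest protein-coding transcript of each gene as the length, KLHL14 ranked 2, CUL3 7 and KLHL6 16, while CUL4A moved to rank 5.

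**Figure D1:**
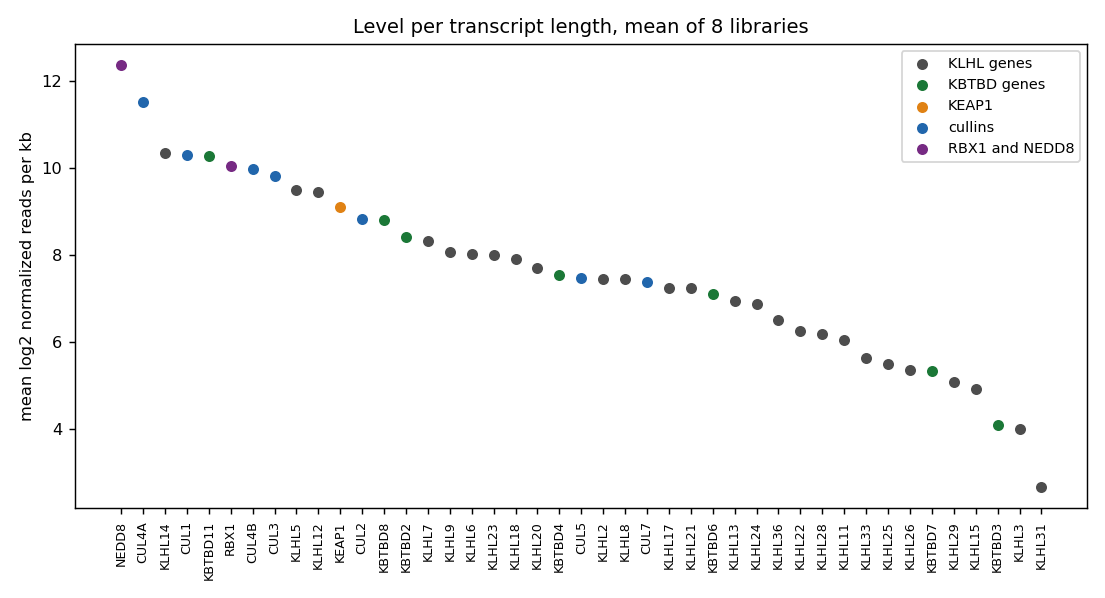
Mean log2 normalized reads per kilobase over 8 libraries (vertical axis) for the 43 expressed members, ordered from high to low; colours mark KLHL genes, KBTBD genes, KEAP1, cullins, and RBX1 with NEDD8. NEDD8 is highest at 12.36, KLHL14 at 10.34 leads the adaptors in this mean over all groups, though not in the DMSO groups, and KLHL6 lies at 8.02.

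KLHL14 is the gene the guide was aimed at, so its own level is given before any comparison. KLHL14 had log2 normalized reads of 13.16 and 13.16 in the libraries labelled sgKLHL14 with ibrutinib, 12.30 and 12.30 in sgCTRL with ibrutinib, 12.19 and 12.33 in the libraries labelled sgKLHL14 with DMSO, and 12.07 and 12.06 in sgCTRL with DMSO. No library labelled sgKLHL14 was below the sgCTRL libraries of its treatment, and sgKLHL14 with ibrutinib stood above all other groups. KLHL14 mRNA was thus not lower under its guide, and a count of reads over a whole gene does not show whether its coding sequence was edited. The libraries are called by their labels throughout. In the GENCODE annotation 287 exon bases of KLHL14 overlap an antisense gene. Whether strand was used in counting is not given in the sources used here, so reads of such overlaps cannot be told apart.

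KLHL6 had 10.23 and 10.29 in sgKLHL14 with ibrutinib, 10.33 and 10.42 in sgCTRL with ibrutinib, 10.88 and 10.92 in sgKLHL14 with DMSO, and 11.17 and 11.16 in sgCTRL with DMSO. The 4 ibrutinib libraries were all below the 4 DMSO libraries, and within each treatment the sgKLHL14 libraries lay below those of sgCTRL. CUL3 had 12.62 and 12.54 in sgKLHL14 with ibrutinib, 12.61 and 12.62 in sgCTRL with ibrutinib, 12.47 and 12.56 in sgKLHL14 with DMSO, and 12.55 and 12.55 in sgCTRL with DMSO. All CUL3 values lay between 12.47 and 12.62, and the groups partly overlapped.

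**Figure D2:**
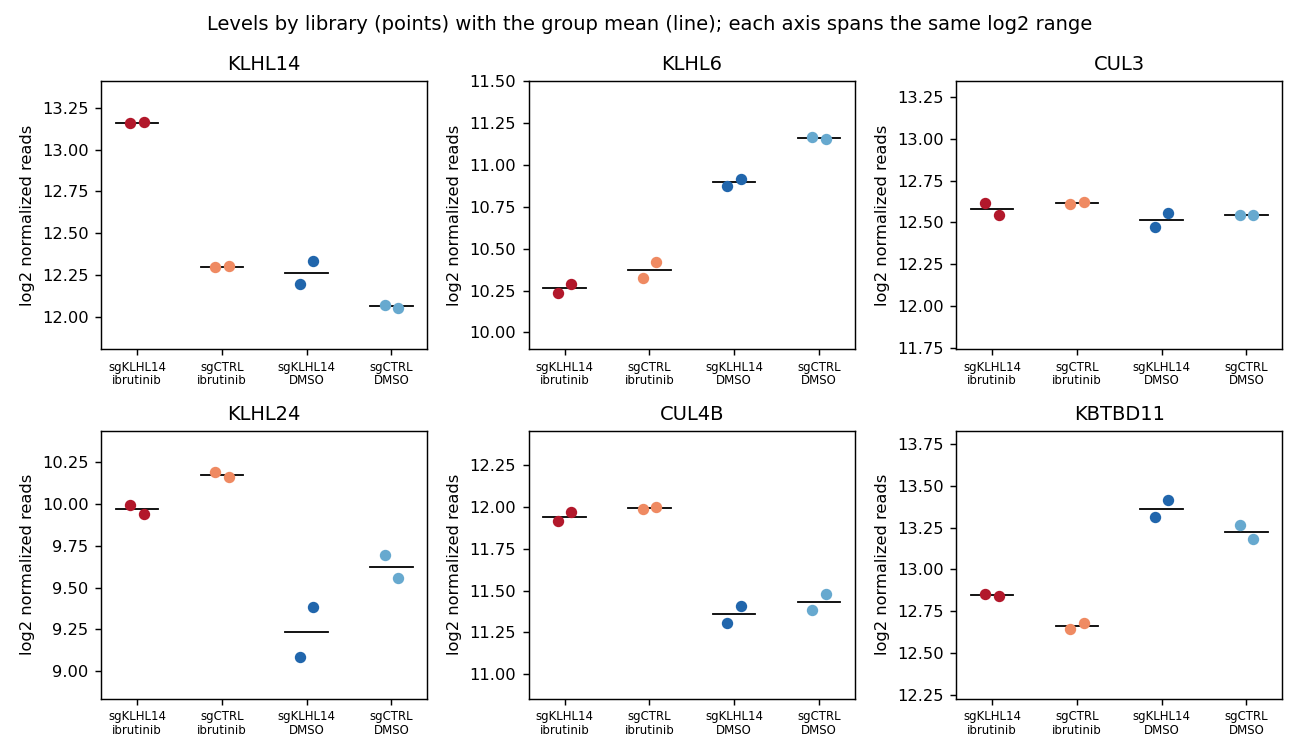
Log2 normalized reads (vertical axis, the same span in each panel) of KLHL14, KLHL6, CUL3, KLHL24, CUL4B and KBTBD11 in each library (points) with the group mean (line), for sgKLHL14 and sgCTRL with ibrutinib and then with DMSO. KLHL14 stands highest in sgKLHL14 with ibrutinib, at 13.16 in both libraries, KLHL6 falls below 10.5 in all ibrutinib libraries, and CUL3 stays between 12.47 and 12.62.

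KLHL14 rose and KLHL6 fell with ibrutinib whichever guide the cells carried, and CUL3 was not called in any comparison. In sgKLHL14 cells KLHL14 rose by 0.90 (log2, SE 0.060, adjusted p = 9.30e-10), the highest change of the 43 members, and in sgCTRL cells it rose by 0.24 (SE 0.060, adjusted p = 0.00421), the 10th highest. KLHL6 fell by 0.63 in sgKLHL14 cells (SE 0.069, adjusted p = 5.84e-07), where 1 member fell more, and by 0.79 in sgCTRL cells (SE 0.069, adjusted p = 3.20e-08), the lowest change of all members. CUL3 changed by 0.07 in either kind of cell, with 95% intervals of -0.05 to 0.19 and adjusted p of 0.389 with sgKLHL14 and 0.383 with sgCTRL. These are limma tests with p-values adjusted over all 12682 genes.

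The level of each adaptor was also expressed as a share of the summed per-kilobase level of the 34 expressed adaptors. KLHL14 made up 23.0% ± 0.34 in sgKLHL14 with ibrutinib, 14.0% ± 0.13 in sgCTRL with ibrutinib, 12.9% ± 0.43 in sgKLHL14 with DMSO and 11.5% ± 0.071 in sgCTRL with DMSO (mean ± SD, n = 2 each). KBTBD11, the leading adaptor in DMSO, made up 11.9% ± 0.048 in sgKLHL14 and 11.6% ± 0.30 in sgCTRL with ibrutinib, against 17.7% ± 0.26 in sgKLHL14 and 16.6% ± 0.68 in sgCTRL with DMSO. KLHL14 took the leading place from KBTBD11 in both ibrutinib groups. KLHL6 made up 2.12% ± 0.084 and 2.52% ± 0.14 with ibrutinib in sgKLHL14 and sgCTRL, against 3.41% ± 0.049 and 4.24% ± 0.020 with DMSO. Per kilobase, KLHL14 exceeded KLHL6 by 10.9 ± 0.27 times in sgKLHL14 with ibrutinib, 5.56 ± 0.26 times in sgCTRL with ibrutinib, 3.77 ± 0.18 times in sgKLHL14 with DMSO and 2.72 ± 0.0040 times in sgCTRL with DMSO. The sum of all adaptors relative to CUL3 was 10.2 ± 0.24, 8.98 ± 0.10, 10.2 ± 0.080 and 9.68 ± 0.011 in the same groups. Rises and falls of single adaptors cancel in such a sum, so its range cannot be set against that of the ratio. Shares depend on the lengths used and on every other adaptor in the sum, and they were not tested.

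**Figure D3:**
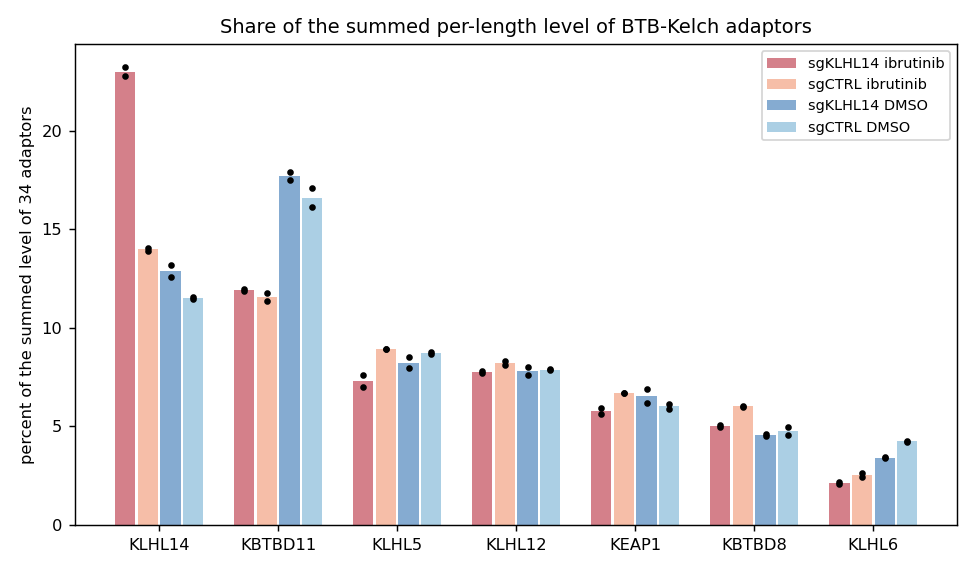
Share of the summed per-kilobase level of 34 adaptors (percent, vertical axis) for 7 adaptors, as group means (bars) with both libraries (points). KLHL14 reaches 23.0% in sgKLHL14 with ibrutinib and KBTBD11 is highest in DMSO, at 17.7% with sgKLHL14 and 16.6% with sgCTRL.

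Over the whole set, ibrutinib changed 17 of 43 members in sgKLHL14 cells (39.5%), where it changed 38.9% of all genes tested, and 13 of 43 in sgCTRL cells (30.2%), where it changed 34.8% of all genes tested. The members were thus called about as often as any expressed gene. In sgKLHL14 cells 10 members rose (19.7% of all genes did) and 7 fell (19.3% of all genes), and in sgCTRL cells 8 rose (17.9%) and 5 fell (16.9%). The median log2 change of the members was -0.01 in sgKLHL14 and 0.06 in sgCTRL, beside 0.01 and 0.02 over all genes. Without replicate 2 of sgKLHL14 in ibrutinib 10 members were called in sgKLHL14, and without replicate 1 of sgKLHL14 in DMSO 11 were. Of the 43 members, 11 were called in both kinds of cell, each in the same direction in both, and 24 were called in no comparison of this study. Those 24 changed by between -0.14 and 0.33 with ibrutinib in sgKLHL14 cells and between -0.15 and 0.50 in sgCTRL cells. The comparisons below share libraries, so their values are given side by side only.

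**Figure D4:**
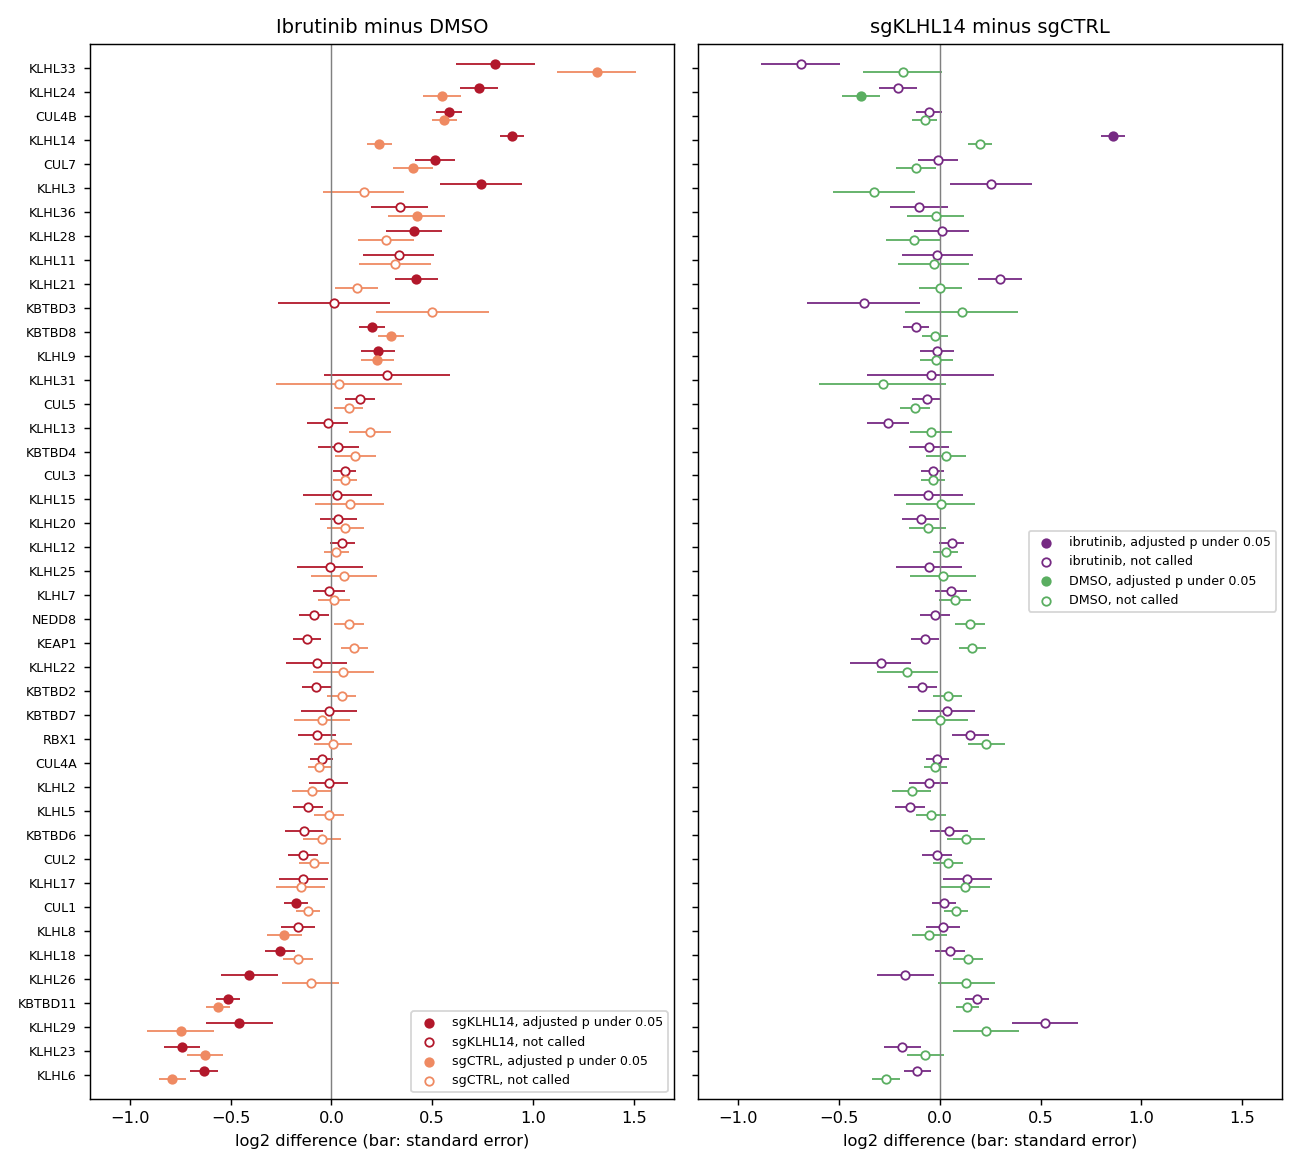
Log2 difference (horizontal axis, bars are the standard error of the fit) of the 43 expressed members for ibrutinib minus DMSO (left) and sgKLHL14 minus sgCTRL (right); filled points have an adjusted p under 0.05. On the left 17 members with sgKLHL14 and 13 with sgCTRL are filled, and on the right KLHL14 (0.86, ibrutinib) and KLHL24 (-0.39, DMSO) are.

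Besides KLHL14, the adaptors KLHL33, KLHL24, KBTBD8 and KLHL9 rose with ibrutinib in both kinds of cell. KLHL33 had 6.77 and 6.68 in sgKLHL14 with ibrutinib, against 5.98 and 5.84 in sgKLHL14 with DMSO, and 7.37 and 7.46 in sgCTRL with ibrutinib, against 6.25 and 5.95 in sgCTRL with DMSO. It rose by 0.81 in sgKLHL14 (SE 0.20, adjusted p = 0.00262) and by 1.32 in sgCTRL (SE 0.20, adjusted p = 3.12e-05), where it was the most raised member. KBTBD8, an adaptor that acts in neural crest formation, had 11.08 and 11.09 against 10.86 and 10.90 in sgKLHL14, and 11.22 and 11.19 against 10.85 and 10.96 in sgCTRL, ibrutinib before DMSO in each pair. Its rise was 0.20 (SE 0.066, adjusted p = 0.0203) in sgKLHL14 and 0.30 (SE 0.066, adjusted p = 0.00164) in sgCTRL. KLHL9, which with KLHL13 guides Aurora B off mitotic chromosomes, rose by 0.23 in sgKLHL14 (SE 0.083, adjusted p = 0.0337) and by 0.23 in sgCTRL (SE 0.083, adjusted p = 0.0402). Both KLHL9 calls ended without the filter on low levels (adjusted p = 0.107 and 0.121) or the trend of variance on level (adjusted p = 0.138 and 0.153). The sgCTRL call also ended with voom on the recovered reads (adjusted p = 0.0555), median scaling (adjusted p = 0.0512) and reads thinned to the shallowest library (adjusted p = 0.0535). KBTBD8 in sgKLHL14 lost its call without the trend of variance on level (adjusted p = 0.0573). KBTBD8 in sgKLHL14 was not called without replicate 1 of DMSO (0.18, adjusted p = 0.0807) or either ibrutinib replicate (0.21 and 0.19, adjusted p = 0.0580 and 0.0864). KLHL9 was not called in sgKLHL14 without DMSO replicate 1 (0.14, adjusted p = 0.272) or ibrutinib replicate 1 (0.13, adjusted p = 0.324), nor in sgCTRL without DMSO replicate 1 (0.16, adjusted p = 0.275) or ibrutinib replicate 1 or 2 (0.22 and 0.24, adjusted p = 0.163 and 0.124).

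A further 3 adaptors were called higher in sgKLHL14 cells and 1 in sgCTRL cells. KLHL3, the adaptor that degrades WNK kinases and is mutated in familial hyperkalaemic hypertension, had 7.06 and 7.17 with ibrutinib and 6.09 and 6.66 with DMSO in sgKLHL14, a rise of 0.74 (SE 0.20, adjusted p = 0.00658), and changed by 0.16 in sgCTRL (SE 0.20, adjusted p = 0.569). KLHL21, an adaptor for Aurora B in dividing cells, rose by 0.42 in sgKLHL14 (SE 0.11, adjusted p = 0.00419) and KLHL28 by 0.41 (SE 0.14, adjusted p = 0.0234). In sgCTRL they were 0.13 and 0.27 higher (adjusted p = 0.391 and 0.135). KLHL36 rose by 0.42 in sgCTRL (SE 0.14, adjusted p = 0.0269), while in sgKLHL14 it was 0.34 higher (adjusted p = 0.0668). The difference between the 2 kinds of cell did not pass its own test for any of these. All 4 calls were lost when 1 library was left out. KLHL3 was at 0.45 (adjusted p = 0.139) without replicate 1 of sgKLHL14 in DMSO and at 0.68 (adjusted p = 0.0510) without replicate 2 of sgKLHL14 in ibrutinib. KLHL28 was at 0.29 and 0.28 (adjusted p = 0.195 and 0.234) without the same libraries, and KLHL21 at 0.24 (adjusted p = 0.102) without replicate 2 of sgKLHL14 in DMSO. KLHL36 lost its call without DMSO replicate 1 or 2 (0.39 and 0.45, adjusted p = 0.119 and 0.0639) or ibrutinib replicate 1 (0.33, adjusted p = 0.208) of sgCTRL. KLHL28 also shares 242 exon bases with TOGARAM1 on the other strand. The KLHL28 call in sgKLHL14 ended without the filter on low levels or the trend of variance on level (adjusted p = 0.128 and 0.140). KLHL21 in sgKLHL14 was not called without that trend (adjusted p = 0.0544), nor KLHL36 in sgCTRL without that filter (adjusted p = 0.0599).

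With KLHL6, the adaptors KBTBD11, KLHL23 and KLHL29 fell with ibrutinib in both kinds of cell. KBTBD11 had 12.86 and 12.84 in sgKLHL14 with ibrutinib, against 13.31 and 13.41 in sgKLHL14 with DMSO, and 12.65 and 12.68 in sgCTRL with ibrutinib, against 13.27 and 13.18 in sgCTRL with DMSO. The ibrutinib and DMSO libraries were well apart, and the fall was 0.51 in sgKLHL14 (SE 0.059, adjusted p = 1.18e-06) and 0.56 in sgCTRL (SE 0.059, adjusted p = 3.84e-07). KLHL23 had 9.54 and 9.63 against 10.17 and 10.47 in sgKLHL14, and 9.72 and 9.81 against 10.39 and 10.40 in sgCTRL, ibrutinib before DMSO. It dropped by 0.74 in sgKLHL14, the lowest change there (SE 0.090, adjusted p = 2.53e-06), and by 0.63 in sgCTRL (SE 0.090, adjusted p = 2.20e-05), but it shares 429 exon bases with PHOSPHO2 on the same strand, so its reads are uncertain. KLHL29 fell by 0.46 in sgKLHL14 (SE 0.16, adjusted p = 0.0341) and by 0.75 in sgCTRL (SE 0.16, adjusted p = 0.00148). The sgKLHL14 call ended without the filter on low levels (adjusted p = 0.108) or the trend of variance on level (adjusted p = 0.0768). In sgKLHL14 KLHL29 was not called without DMSO replicate 1 (-0.30, adjusted p = 0.290) or without ibrutinib replicate 1 or 2 (-0.37 and -0.54, adjusted p = 0.165 and 0.0509).

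KLHL18 and KLHL26 were called lower in sgKLHL14 cells and KLHL8 in sgCTRL cells. KLHL18, an adaptor linked to Aurora A and entry into mitosis, had 10.03 and 10.02 with ibrutinib and 10.31 and 10.26 with DMSO in sgKLHL14, a fall of 0.26 (SE 0.075, adjusted p = 0.0105). KLHL26 fell by 0.41 in sgKLHL14 (SE 0.14, adjusted p = 0.0292) and KLHL8 by 0.23 in sgCTRL (SE 0.085, adjusted p = 0.0392). In the other kind of cell the values had the same sign, at -0.17 for KLHL18 and -0.10 for KLHL26 in sgCTRL and -0.17 for KLHL8 in sgKLHL14 (adjusted p = 0.0918, 0.605 and 0.132). The difference in response did not pass for KLHL18, KLHL26 or KLHL8 (adjusted p = 0.967, 0.937 and 0.984). KLHL8 in sgCTRL was not called without the filter on low levels or the trend of variance on level (adjusted p = 0.0790 and 0.101). With thinned reads neither KLHL8 in sgCTRL nor KLHL18 in sgKLHL14 was called (adjusted p = 0.0591 and 0.0559). KLHL18 was not called without replicate 1 of sgKLHL14 in DMSO (-0.23, adjusted p = 0.0617) or replicate 2 in ibrutinib (-0.25, adjusted p = 0.0538), and it shares 178 exon bases with KIF9 on the other strand. The KLHL26 call ended without any one of the 4 sgKLHL14 libraries (DMSO replicates -0.35 and -0.46, adjusted p = 0.156 and 0.0597, ibrutinib replicates -0.41 and -0.40, adjusted p = 0.0731 and 0.0891). The KLHL8 call likewise ended without any one of the 4 sgCTRL libraries (-0.24 and -0.23 without DMSO replicates 1 and 2, -0.25 and -0.22 without ibrutinib replicates 1 and 2, adjusted p from 0.118 to 0.170).

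Among the scaffolds and the core, CUL4B and CUL7 rose with ibrutinib in both kinds of cell. CUL4B, the X-linked partner of CUL4A in the DDB1 ligases, had 11.91 and 11.97 in sgKLHL14 with ibrutinib, against 11.31 and 11.41 in sgKLHL14 with DMSO, and 11.99 and 12.00 in sgCTRL with ibrutinib, against 11.38 and 11.48 in sgCTRL with DMSO. The rise was 0.58 in sgKLHL14 (SE 0.063, adjusted p = 5.89e-07) and 0.56 in sgCTRL (SE 0.063, adjusted p = 1.05e-06), while CUL4A itself changed by -0.05 in sgKLHL14 (adjusted p = 0.534). CUL7, the scaffold mutated in 3M growth syndrome, had 9.93 and 10.06 against 9.64 and 9.31 in sgKLHL14, and 9.996 and 10.001 against 9.66 and 9.53 in sgCTRL, ibrutinib before DMSO. It rose by 0.52 (SE 0.099, adjusted p = 0.000376) in sgKLHL14 and by 0.41 (SE 0.099, adjusted p = 0.00337) in sgCTRL, and 329 of its exon bases overlap KLC4 on the other strand. Without the trend of variance on level the sgCTRL call was lost (0.41, adjusted p = 0.0532). CUL1 had 11.90 and 11.80 with ibrutinib and 12.01 and 12.05 with DMSO in sgKLHL14, a fall of 0.18 (SE 0.060, adjusted p = 0.0256), and was 0.12 lower in sgCTRL (adjusted p = 0.146), with no difference in response called (adjusted p = 0.971). That call was lost without the second DMSO replicate (-0.16, adjusted p = 0.0951) or the second ibrutinib replicate (-0.12, adjusted p = 0.214) of sgKLHL14, and without either sgCTRL ibrutinib library (-0.18, adjusted p = 0.0510 and 0.0508). CUL1 in sgKLHL14 was also not called with the 2 groups of the contrast alone (adjusted p = 0.0625) or with thinned reads (adjusted p = 0.101). Without the trend of variance on level its adjusted p was 0.0796. CUL2, CUL3, CUL4A, CUL5, RBX1 and NEDD8 were not called in any comparison.

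KLHL6 and KLHL24 are neighbours on chromosome 3, on opposite strands, with no protein-coding gene between them in the RefSeq gene list, and they moved in opposite directions with ibrutinib. KLHL24, an adaptor best known for controlling keratin 14 in skin, had 9.99 and 9.94 in sgKLHL14 with ibrutinib, 10.19 and 10.16 in sgCTRL with ibrutinib, 9.08 and 9.39 in sgKLHL14 with DMSO, and 9.70 and 9.56 in sgCTRL with DMSO. Every ibrutinib library was above every DMSO library, the reverse of KLHL6. KLHL24 rose by 0.73 in sgKLHL14 (SE 0.095, adjusted p = 5.59e-06) and by 0.55 in sgCTRL (SE 0.095, adjusted p = 1.62e-04). The 250 bases before the start of each gene are shown because these 2 neighbours moved in opposite directions. They are RefSeq sequences on GRCh38.p14, at chr3:183555707-183555956 on the minus strand for KLHL6 and chr3:183635373-183635622 on the plus strand for KLHL24, written in the direction of each gene with letters that match a motif in capitals.
KLHL6: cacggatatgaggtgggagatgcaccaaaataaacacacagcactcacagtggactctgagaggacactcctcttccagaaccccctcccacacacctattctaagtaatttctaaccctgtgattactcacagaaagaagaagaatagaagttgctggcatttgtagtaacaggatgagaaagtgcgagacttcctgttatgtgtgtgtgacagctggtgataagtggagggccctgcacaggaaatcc
KLHL24: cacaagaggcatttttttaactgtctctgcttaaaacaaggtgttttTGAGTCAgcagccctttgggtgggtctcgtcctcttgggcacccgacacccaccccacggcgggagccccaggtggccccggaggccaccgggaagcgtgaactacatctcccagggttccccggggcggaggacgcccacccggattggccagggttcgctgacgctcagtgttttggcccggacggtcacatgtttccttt
The capitals in KLHL24 mark a match to AP-1 (TGANTCA), 203 to 197 bases before the start, which reads as a match on both strands. The share of 35116 RefSeq promoters of the same length with a match was 6.57% for AP-1, 9.96% for kappaB, 1.63% for octamer (ATGCAAAT), 2.17% for SPI1 (GAGGAAGT), 2.98% for FOXO (GTAAACA), 3.02% for ISRE (GAAANNGAAA), 10.9% for ARE (TGACNNNGC), 6.34% for E-box (CACGTG) and 1.65% for CRE (TGACGTCA). Both strands were read, a match to one of AP-1, ARE and CRE can overlap a match to another, and no motif matched in the KLHL6 window. The KLHL6 sequence has 46.8% and the KLHL24 sequence 60.8% G and C. Of the 43 expressed members, 35 had a promoter in the table, and KLHL14 was not among them. These 35 had 57 promoters, and AP-1 matched in 4 of the 57, those of CUL2, KLHL12, KLHL21 and KLHL24. For KLHL6 and KLHL24 the first listed promoter is shown.

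The guide changed few members. In ibrutinib 1 of 43 members was called between sgKLHL14 and sgCTRL, where 2.35% of all genes were, and it was KLHL14 itself, 0.86 higher in sgKLHL14 (SE 0.060, 95% interval 0.73 to 0.98, adjusted p = 2.46e-08). In DMSO 1 of 43 was called, where 1.62% of all genes were, and it was KLHL24, 0.39 lower in sgKLHL14 (SE 0.095, adjusted p = 0.0433). KLHL14 in DMSO was 0.20 higher (SE 0.060, adjusted p = 0.107), and KLHL6 was 0.27 lower in DMSO (95% interval -0.41 to -0.12, adjusted p = 0.0541) and 0.11 lower in ibrutinib (95% interval -0.25 to 0.03, adjusted p = 0.555). CUL3 differed by -0.04 in ibrutinib and -0.03 in DMSO (adjusted p = 0.877 and 0.849). The KLHL24 call in DMSO was lost without any library except replicate 2 of sgKLHL14 in DMSO. Its difference was -0.24 (adjusted p = 0.558) without replicate 1 of sgKLHL14 in DMSO, -0.32 and -0.46 (adjusted p = 0.401 and 0.0685) without replicates 1 and 2 of sgCTRL in DMSO, and -0.39 (adjusted p from 0.0555 to 0.0664) without any one ibrutinib library. It was also not called without the filter on low levels (adjusted p = 0.247), without the trend of variance on level (adjusted p = 0.304), after quantile normalization (adjusted p = 0.0604) or with reads thinned to the shallowest library (adjusted p = 0.0541). The KLHL6 difference in DMSO passed with voom on the recovered reads (adjusted p = 0.0262), median scaling (adjusted p = 0.0485) and a robust prior (adjusted p = 0.0486).

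KLHL14 was the 1 member whose ibrutinib response was called different between the 2 kinds of cell, 1 of 43 where 0.0237% of all genes were called (3 of 12682). Its response was 0.90 with sgKLHL14 and 0.24 with sgCTRL, a difference of 0.66 (SE 0.085, 95% interval 0.48 to 0.83, adjusted p = 0.00162). The difference ran from 0.59 to 0.73 when any one library was left out and stayed called, but it was not called without the filter on low levels (adjusted p = 0.210) or without the trend of variance on level (adjusted p = 0.521). For KLHL6 the responses of -0.63 with sgKLHL14 and -0.79 with sgCTRL differed by 0.16 (95% interval -0.05 to 0.36, adjusted p = 0.937), and for CUL3 the difference was -0.002 (95% interval -0.17 to 0.17).

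A further 6 lists place the members in their pathway. For each, the count of genes called is read against the share of all genes called in the same comparison. With ibrutinib this was 38.9% in sgKLHL14 (19.7% higher, 19.3% lower) and 34.8% in sgCTRL (17.9% higher, 16.9% lower). For the guide it was 2.35% with ibrutinib and 1.62% with DMSO, in either direction. Of 6 expressed BTB-Kelch genes with other symbols, 4 rose and 0 fell with ibrutinib in sgKLHL14, and 3 rose and 0 fell in sgCTRL, with medians of 0.29 and 0.24. Of these genes 0 in sgKLHL14 and 1 in sgCTRL were lower at an unadjusted p under 0.05, and limma-voom on the recovered reads also called 0 lower. They included IVNS1ABP, the influenza NS1-binding adaptor (0.27 with sgKLHL14 and 0.35 with sgCTRL), LZTR1, the adaptor for RAS proteins (0.35 and 0.41), and ENC1 (0.31 and 0.44). Of 26 other BTB adaptors of CUL3, 7 rose and 3 fell in sgKLHL14 and 6 rose and 1 fell in sgCTRL, medians 0.10 and 0.11. ABTB1 rose by 1.10 with sgKLHL14 (adjusted p = 3.12e-06) and 1.02 with sgCTRL (adjusted p = 9.05e-06), and KCTD17 by 0.67 and 0.64.

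Neddylation, exchange and COP9 signalosome genes attach NEDD8 to cullins, swap their receptors and take NEDD8 off again. Of 23 expressed genes of this list, 2 rose and 6 fell in sgKLHL14 and 1 rose and 7 fell in sgCTRL, with medians of -0.11 and -0.08. The NEDD8-conjugating enzyme UBE2M fell by 0.41 with sgKLHL14 and 0.37 with sgCTRL (adjusted p = 5.61e-05 and 1.71e-04), the neddylation helper DCUN1D5 by 0.53 and 0.46, and NAE1, a subunit of the NEDD8-activating enzyme, by 0.37 and 0.35. NUB1, which binds NEDD8 and lowers its conjugates, rose by 0.71 and 0.47 (adjusted p = 2.63e-06 and 3.05e-04), and was 0.42 lower in sgKLHL14 than in sgCTRL under DMSO (adjusted p = 0.0143), the 1 gene of this list called for the guide. Of 29 other cullin-RING subunits, receptors and ubiquitin enzymes, 5 rose and 3 fell in sgKLHL14 and 5 rose and 4 fell in sgCTRL, medians -0.04 and -0.0015, among them CUL9 (0.40 and 0.41) and DTL, the CUL4 receptor of replicating cells (-0.48 and -0.40).

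Of 24 expressed genes reported as substrates or partners of BTB-Kelch ligases, 8 rose and 6 fell in sgKLHL14 and 5 rose and 8 fell in sgCTRL, medians 0.10 and 0.11. CD79B, a signalling chain of the B cell receptor, rose by 1.15 with sgKLHL14 and 1.24 with sgCTRL (adjusted p = 1.47e-10 and 5.75e-11), and AURKA, the mitotic kinase, fell by 0.46 and 0.34 (adjusted p = 8.65e-06 and 2.90e-04). NFE2L2, the factor that KEAP1 holds down, fell by 0.39 in sgKLHL14 and 0.42 in sgCTRL (adjusted p = 7.62e-04 and 4.07e-04), while KEAP1 differed by -0.12 in sgKLHL14 and 0.11 in sgCTRL (adjusted p = 0.183 and 0.212). Of 20 expressed target genes of NFE2L2, 0 rose and 10 fell in sgKLHL14 and 0 rose and 8 fell in sgCTRL, medians -0.18 and -0.13, among them the ferritin chains FTL (-0.47 and -0.40) and FTH1 (-0.36 and -0.41). With ibrutinib, in either kind of cell, 0 genes of that list were higher at an unadjusted p under 0.05 in limma, and voom called 0 higher. SLC7A11, the cystine transporter of that list, was lower under the guide, by 0.37 with ibrutinib and 0.34 with DMSO (adjusted p = 0.0184 and 0.0469). It was the 1 gene of the list called for the guide, whose medians over the list were 0.01 with ibrutinib and 0.05 with DMSO. At an unadjusted p under 0.05, 3 genes of the list were higher and 1 lower in sgKLHL14 with ibrutinib, and 6 were higher and 1 lower with DMSO, while limma and voom called 0 higher in either treatment. Over all 12682 genes tested, 1624 with ibrutinib and 1734 with DMSO had an unadjusted p under 0.05 for the guide, in either direction. Of the 128 genes in these 6 lists, 0 were called by limma for the difference in ibrutinib response, 6 had an unadjusted p under 0.05, and voom called 0. For that difference 721 of all 12682 genes tested had an unadjusted p under 0.05.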

How the data were processed

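RNA-seq libraries of TMD8 cells were demultiplexed with bcl2fastq, aligned with STAR and counted with HTSeq on hg19, per the submitters' processing notes; versions and the normalization are not given in the sources at hand. The authors deposited 1 table of log2 normalized reads with a row of library totals, which was kept out of the tests (0 columns belonged to other samples). Tested on the values, 100% of entries were whole reads times a factor of their library (1.16 to 2.19 a read) within 6e-04 on the log2 scale, with 0 reads listed at 0.

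Log2 values of the 12682 genes with a mean of at least 10 reads entered a limma 3.58.1 fit of 4 group means (R 4.3.3) with a mean-variance trend (4 residual and 15.05 prior degrees of freedom), adjusted by Benjamini-Hochberg over all genes and called at an adjusted p under 0.05. The fit was tested on simulated data. Low genes carry more counting error in the shallower libraries. CPM were computed from the recovered reads. Levels between genes are per kilobase of the transcript named in the table, by its GENCODE length. The transcript named for KLHL29 had no match there, so its longest protein-coding transcript was used. Symbols are those of the table, and the RefSeq list of GRCh38.p14 gave neighbours and promoters. Exon overlaps of at least 50 bases were read from GENCODE. KLHL14, KLHL6 and CUL3 are given in every library, other members where called, and of each list at most 4 genes a comparison and direction by smallest p. The members and lists were chosen with earlier results of these data known. Alternatives were other filters, normalizations and priors, a replicate block, thinning, leaving out each library, and, chosen after seeing the data, voom and the longest transcript as length.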

Additional observations from a re-analysis of the deposited data

Results flagged for a closer look

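The ibrutinib response of KLHL14 differed between the 2 kinds of cell by a test of the difference itself. KLHL14 rose by 0.90 in the libraries labelled sgKLHL14 and by 0.24 in sgCTRL, a difference of 0.66 on the log2 scale (limma, adjusted p = 0.00162).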

How the results depend on the processing

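Of 33 called changes of members, 18 stayed called under every alternative in which the gene was tested. KLHL33, with a mean of 6.54, fell below the stricter filter of 100 reads and was not tested there. Dropping the trend ended 11 of these calls and dropping the filter on low levels 8. Without the filter on low levels the guide changed 47 genes and 0 members in DMSO and 155 genes in ibrutinib, the difference in response had 0 genes and 0 members, and KLHL14 there kept 0.66 with an adjusted p of 0.210. Without the trend these were 25 genes and 0 members in DMSO, 96 genes in ibrutinib, and 0 genes and 0 members for the difference, with KLHL14 at 0.66 (adjusted p = 0.521). The cause was not tested.

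For the guide in DMSO, quantile normalization and thinned reads called 0 members, and a robust prior, median scaling and voom called 2, the second being KLHL6 (-0.27, -0.28 and -0.28, adjusted p = 0.0486, 0.0485 and 0.0262). With the 2 groups of the contrast alone, 3 members were called for the guide in ibrutinib. The replicate block called 369 genes and 2 members for the guide in DMSO (KLHL6 at -0.27, adjusted p = 0.0258) and 5 genes for the difference in response. Same-numbered libraries correlated in their deviations at -0.061 to 0.106. The sample titles give a replicate number and do not say whether libraries with the same number were paired.

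Leaving out each library gave 63 to 534 genes and 0 to 1 members for the guide in DMSO (63 without replicate 1 of sgCTRL, 76 and 534 without replicates 1 and 2 of sgKLHL14), 123 to 364 genes for the guide in ibrutinib (173 and 181 without either replicate of sgKLHL14, 145 and 123 without either of sgCTRL), 2907 to 4638 genes for ibrutinib in sgCTRL (2907 without replicate 2 of ibrutinib) and 10 to 17 members for ibrutinib in sgKLHL14. The lowest of the last count was without replicate 2 of sgKLHL14 in ibrutinib. The CUL3 difference in response, -0.002, turned to 0.0068 with quantile normalization, 0.0095 with median scaling and 0.0066 with voom, and ran from -0.045 to 0.041 when single libraries were left out. Its guide difference in DMSO, -0.03, ran from -0.077 to 0.009 in the same way. Neither was called anywhere. edgeR and DESeq2 on recovered reads were planned and were not run. With 2 libraries a group and members of fewer than 100 reads, such as KLHL31 and KBTBD3, small changes were not detectable at this depth.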
